A study of Homo sapiens with 12 samples.

Results

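TXNIP, the alpha-arrestins ARRDC1, ARRDC2, ARRDC3 and ARRDC4, and MLXIP and MLX, the glucose-sensing transcription factors that act on TXNIP, were followed in HK-2 cells exposed to the compound labelled Nnm. The genes were chosen by name through the gene symbols of the array's probe sets, after the large change of TXNIP in these data was known. They are 7 of the 19775 genes named by the array, have 18 probe sets, and all 7 were among the 10907 genes bright enough to test. HK-2 is an immortalised cell line derived from the proximal tubule of a human kidney. The groups were Nnm at a low dose for 24 h, its vehicle control for 24 h, Nnm at a low dose for 48 h and its vehicle control for 48 h, with 3 arrays each from cultures labelled as biological replicates. No concentration of Nnm is given in the sources used here. All 4 groups shared the same medium, which held 5 mM glucose with insulin (5 µg per ml), hydrocortisone (36 ng per ml) and EGF (10 ng per ml), and exposure began at about 90% confluency. Each array gave log2 expression values, so that a difference of 1 is a doubling of signal. Fewer cells carrying a transcript and less transcript per cell cannot be told apart in RNA from whole cultures.

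TXNIP, the thioredoxin-interacting protein, is an alpha-arrestin that binds thioredoxin and draws glucose transporters from the cell surface into the cell. MLXIP, also called MondoA, pairs with MLX, and when glucose 6-phosphate builds up the pair enters the nucleus and switches on TXNIP and ARRDC4 through carbohydrate response elements in their promoters. ARRDC4 also lowers glucose uptake, while ARRDC3 acts on the trafficking of beta-adrenergic receptors and ARRDC1 on the budding of vesicles from the plasma membrane. The family is known for PPxY motifs that recruit ubiquitin ligases of the NEDD4 family. In the kidney, TXNIP is known as a transcript that rises with high glucose.

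The promoters of the 3 alpha-arrestin genes with the largest changes are shown because they carry, or lack, the letters of the elements that glucose-sensing and forkhead factors bind. For TXNIP and ARRDC3, which have 2 annotated starts each, the window shown was picked for its matches to such elements, and the other window of each had none of them. The windows, from RefSeq on GRCh38.p14, run from 250 bases before to 50 bases after an annotated start, and each reads 5′ to 3′ along its gene. TXNIP (first of its 2 annotated starts) lies at chr1:145996530-145996829 on the minus strand, ARRDC4 at chr15:97960453-97960752 on the plus strand, and ARRDC3 (the other of its 2 starts, nearer the end of the gene) at chr5:91380048-91380347 on the minus strand. Capitals mark matches to a pair of E-box-like elements (CACGNG, any 5 bases, then CNCGNG), to the E-box CACGTG and to the forkhead motif GTAAACA, searched on both strands.
TXNIP: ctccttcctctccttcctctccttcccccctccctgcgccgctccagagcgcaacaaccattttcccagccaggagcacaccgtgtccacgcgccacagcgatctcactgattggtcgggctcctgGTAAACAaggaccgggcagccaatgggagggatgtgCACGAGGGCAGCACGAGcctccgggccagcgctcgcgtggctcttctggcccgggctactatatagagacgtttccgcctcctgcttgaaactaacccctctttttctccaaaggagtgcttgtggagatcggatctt
ARRDC4: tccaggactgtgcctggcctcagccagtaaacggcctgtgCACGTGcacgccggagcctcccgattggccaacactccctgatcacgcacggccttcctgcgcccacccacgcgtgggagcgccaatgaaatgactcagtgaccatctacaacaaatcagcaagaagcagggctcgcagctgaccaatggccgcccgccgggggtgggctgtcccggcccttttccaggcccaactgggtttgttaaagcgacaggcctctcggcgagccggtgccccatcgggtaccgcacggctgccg
ARRDC3: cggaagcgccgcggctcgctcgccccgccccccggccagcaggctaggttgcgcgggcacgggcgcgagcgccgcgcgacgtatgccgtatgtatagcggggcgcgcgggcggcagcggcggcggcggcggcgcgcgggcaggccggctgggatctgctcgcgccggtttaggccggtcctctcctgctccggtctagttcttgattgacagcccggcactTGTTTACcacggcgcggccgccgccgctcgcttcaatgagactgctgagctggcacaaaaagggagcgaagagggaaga
The paired pattern was written with the TXNIP element known from the literature in mind, so its presence in TXNIP is no finding. It occupied bases -88 to -72 of TXNIP, counted from the start, and 0.501% of the 35116 windows in the RefSeq table held it. The forkhead motif lay at bases -124 to -118 of TXNIP and, on the opposite strand, at bases -29 to -23 of ARRDC3, and 3.42% of all windows held it. ARRDC4 had no match to the paired pattern and 1 E-box, at bases -210 to -205. MLX had an E-box at bases -50 to -45, and 7.26% of all windows held that motif. The CCAAT box, which is short and common (34.6% of all windows), was found 3 times in ARRDC4, 2 times in TXNIP and 1 time each in MLX, MLXIP, ARRDC1, ARRDC2 and the first window of ARRDC3. These are matches of letters and say nothing about binding in these cells.

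**Figure D1:**
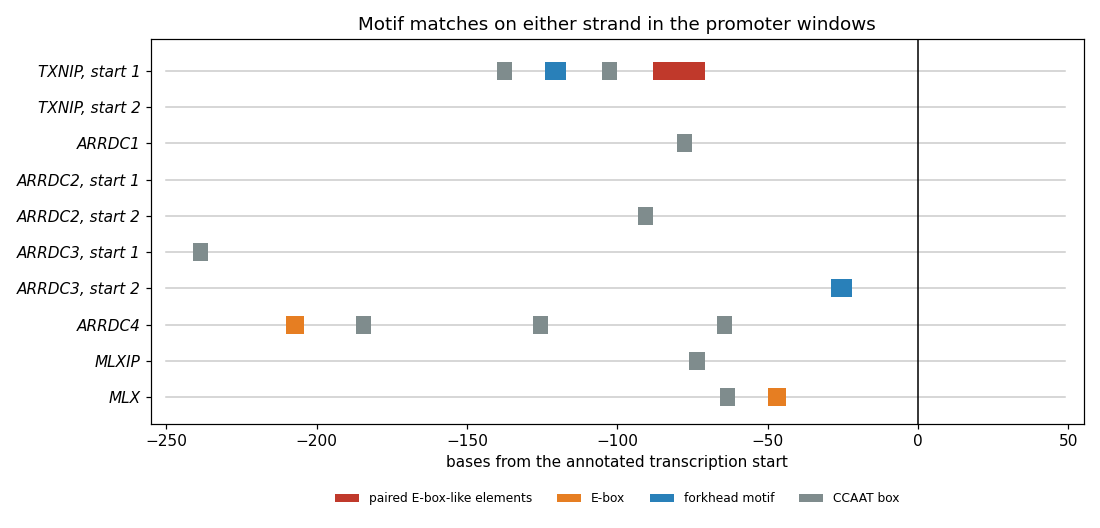
Positions of motif matches in the 10 promoter windows of the 7 genes, in bases from the annotated start (the vertical line at 0). Each coloured block is 1 match on either strand, drawn to scale. The first TXNIP window holds the paired E-box-like elements at -88 to -72 and a forkhead motif at -124 to -118, and ARRDC4 holds an E-box at -210 to -205.

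The 12 arrays were alike in brightness, with 40.4% to 40.8% of their 54675 probe sets above a log2 of 4. At each time the Nnm culture of replicate 2 departed least from its control, with 2.25% of genes differing by more than 1 from the control array of its number at 24 h (11.8% and 12.6% in the other replicates) and 2.04% at 48 h (10.9% and 8.55%). All 4 replicate 2 arrays, controls included, also had a lower 5′ against 3′ signal of ACTB, a measure of RNA length, at -1.17 to -1.09 against -0.86 to -0.74 on the other 8 arrays. The same measure for GAPDH overlapped, at 0.06 to 0.16 on the replicate 2 arrays against 0.03 to 0.16 on the other 8. The part of the ACTB difference in the results was not tested. Of 11 proximal tubule markers, 2 (DPP4 and PAX8) exceeded a log2 of 4 on at least 3 arrays, and LRP2, CUBN, SLC34A1, SLC22A6, SLC22A8, AQP1, GGT1, ANPEP and MME did not. All 7 general epithelial markers exceeded it, as did 3 of 6 distal nephron markers (SLC12A1, TFCP2L1 and SCNN1A), 3 of 7 fibroblast markers (COL1A1, DCN and LUM), 1 of 5 endothelial markers (PECAM1) and 0 of 3 leukocyte markers. SLC12A1, at 3.99 to 4.14, and PECAM1, at 3.8 to 4.66, lay close to a log2 of 4 throughout and may be background. The summed proximal tubule markers were higher with Nnm, at 12.7 to 12.9 on the log2 scale against 11.9 to 12.2 in control cells at 24 h, and at 13.3 to 13.5 against 12.3 to 12.5 at 48 h. Sums were taken before the log, so the brightest markers carry them. Nearly all of this sum was DPP4 (11.1 to 13 over the 12 arrays) and PAX8 (10.6 to 11.7), so it does not speak for the other markers. The summed distal nephron markers were higher as well, at 9.89 to 9.94 with Nnm against 8.94 to 9.20 in control cells at 24 h, and at 9.98 to 10.5 against 9.52 to 9.76 at 48 h. Nearly all of that sum was SCNN1A and TFCP2L1. The summed fibroblast markers overlapped at 24 h and were apart at 48 h, at 12.4 to 12.6 with Nnm against 12.2 to 12.3 in control cells, although COL1A1 among them fell by 0.53 at 48 h (limma adjusted p = 0.0491, up to 0.172 without 1 array). The sums of the epithelial, endothelial and leukocyte markers overlapped at both times. The part of these marker levels in the changes below was not tested.

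TXNIP was the gene that led to the choice, so its values are described without a test. At 24 h it read 12.27, 11.82 and 12.23 on the Nnm arrays (replicates 1 to 3) against 9.35, 9.85 and 9.15 on the control arrays. All 3 Nnm values lay more than 1 log2 unit above the highest control value, with means of 12.10 ± 0.25 and 9.45 ± 0.36 (SD, n = 3 each). At 48 h it read 12.55, 11.74 and 12.19 with Nnm against 4.25, 6.70 and 7.14 in control cells. The Nnm values were again high on every array, while the control values spread widely and the control of replicate 1 came close to the brightness limit, with means of 12.16 ± 0.40 and 6.03 ± 1.56 (SD, n = 3 each).

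The difference of TXNIP between Nnm and control cells was 2.66 at 24 h (SE 0.59, a fold of 6.31) and 6.13 at 48 h (SE 0.59, a fold of 70.1). It ranked 13th among the rises of the 10907 genes at 24 h and was number 2 at 48 h. The SE comes from a spread pooled over all arrays and is smaller than the spread of the 48 h controls alone would give. Without the control array of replicate 1 at 48 h the 48 h difference was 5.24.

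The widening between the times lay on the control side. TXNIP in control cells at 48 h was 3.42 lower than in control cells at 24 h (SE 0.59, a fold of 0.0935), the lowest of the 10907 differences between the control groups, and 2.53 lower without the low control array. In Nnm cells the difference between 48 h and 24 h was 0.06 (SE 0.59), and the values at the times overlapped. The Nnm effect at 48 h minus that at 24 h was therefore 3.47 (SE 0.84), the highest of all genes, and 2.58 without that control array. These comparisons share their control arrays. Ordered by level, TXNIP stood highest in Nnm cells at 48 h and at 24 h, which did not differ beyond their spread, then in control cells at 24 h and lowest in control cells at 48 h, with no overlap between these last groups or with the Nnm groups.

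TXNIP has 2 further probe sets, which gave the same picture. One of them read 11.92, 11.74 and 12.22 with Nnm against 8.98, 9.69 and 8.97 in control cells at 24 h, and 12.24, 11.65 and 12.18 against 4.67, 6.41 and 6.86 at 48 h. The other differed by 2.63 at 24 h and 5.76 at 48 h, with control arrays at 4.35, 6.68 and 6.63 at 48 h. The low control of replicate 1 at 48 h was thus low on all 3 probe sets, which share 1 transcript and are no independent measurements.

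**Figure D2:**
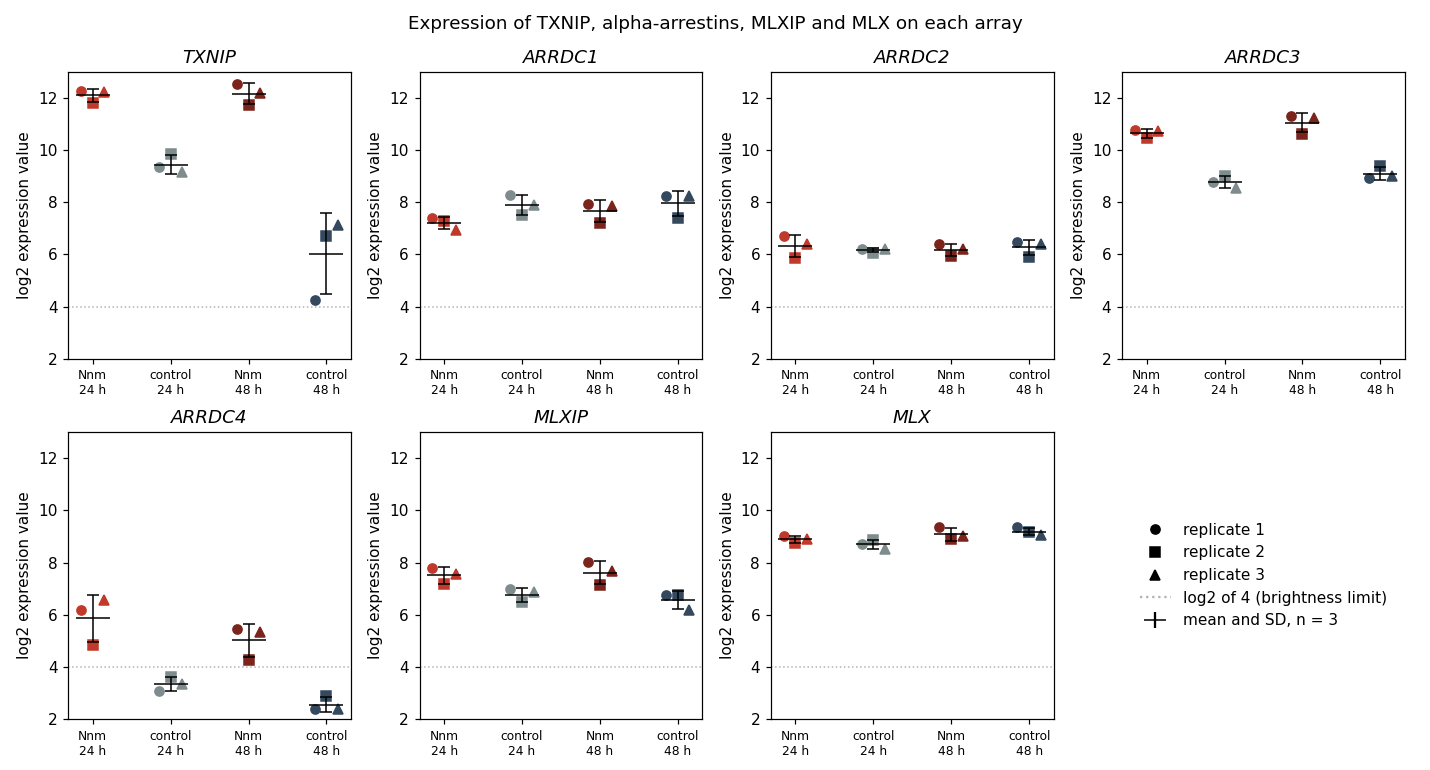
Log2 expression on each of the 12 arrays for TXNIP, ARRDC1, ARRDC2, ARRDC3, ARRDC4, MLXIP and MLX, by group, with symbols for the replicate number, bars for the mean and SD (n = 3) and a dotted line at the brightness limit of 4. TXNIP stays near 12 in both Nnm groups and reads 4.25 to 7.14 in the 48 h controls, and the 6 control values of ARRDC4 lie below the limit.

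ARRDC3 and ARRDC4 rose with Nnm at both times. They were 2 of the 6 genes given a test that passed it at 24 h, and with MLXIP they made 3 of 6 at 48 h. ARRDC4 entered the test through its Nnm arrays alone and had to differ for that, so it adds nothing to these counts as support. A share of 10.6% of all tested genes rose at 24 h and 8.45% at 48 h by the same test (limma, p adjusted over all 10907 genes by Benjamini and Hochberg, threshold 0.05). The shares that fell were 8.85% and 5.34%, and those in either direction 19.4% and 13.8%. Because the genes were chosen with these comparisons known, nothing is read from the counts. The median change of the 6 was 0.47 at 24 h and 0.48 at 48 h, against 0.01 and 0.02 for all genes. Without ARRDC4 the median of the other 5 was 0.20 at 24 h and -0.09 at 48 h.

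ARRDC4, the alpha-arrestin most like TXNIP in its dependence on MLXIP, read 6.18, 4.83 and 6.56 with Nnm at 24 h against 3.07, 3.60 and 3.35 in control cells. At 48 h it read 5.43, 4.28 and 5.32 with Nnm against 2.37, 2.89 and 2.39 in control cells. Every Nnm value lay above every control value, the Nnm array of replicate 2 was the lowest of its group at both times, and all 6 control values lay below a log2 of 4, near the floor of the array. ARRDC4 thus passed the filter on dim genes through its Nnm arrays alone, and with the control values raised to the brightness limit it was at least 3.63-fold higher with Nnm at 24 h and at least 2.02-fold higher at 48 h. As measured, the differences were 2.52 (SE 0.42, limma adjusted p = 0.00715) and 2.46 (SE 0.42, limma adjusted p = 0.00854), and without any filter the limma adjusted p was 0.0241 and 0.0272. It stayed past the threshold without each of the 12 arrays in turn, with adjusted p up to 0.0367 at 24 h and 0.0443 at 48 h. These fits kept the filter, which ARRDC4 passed only by being higher with Nnm. Neither the p after the filter nor its stability therefore counts as support.

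ARRDC3, which steers beta-adrenergic receptors and has been described as a tumour suppressor, read 10.75, 10.45 and 10.74 with Nnm at 24 h against 8.77, 9.00 and 8.55 in control cells. At 48 h it read 11.31, 10.63 and 11.23 with Nnm against 8.93, 9.38 and 8.99 in control cells. The groups lay more than 1 log2 unit apart at both times, and all values were far above the brightness limit. The rise was 1.87 at 24 h (SE 0.20, a fold of 3.67, limma adjusted p = 0.00307) and 1.96 at 48 h (SE 0.20, a fold of 3.88, limma adjusted p = 0.00122). Both calls held without each array in turn, with adjusted p up to 0.0278 and 0.0113.

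ARRDC1, which drives the release of small vesicles, read 7.38, 7.28 and 6.96 with Nnm at 24 h against 8.29, 7.51 and 7.90 in control cells. All 3 Nnm values lay below the controls, but the difference of -0.69 (SE 0.28, 95% interval -1.31 to -0.07) did not pass the test (limma adjusted p = 0.102). With the replicate number as a block in limma it did (limma adjusted p = 0.02). At 48 h the groups overlapped, at 7.95, 7.20 and 7.84 with Nnm against 8.22, 7.41 and 8.23 in control cells, with a difference of -0.29 (SE 0.28, 95% interval -0.91 to 0.33, limma adjusted p = 0.51).

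ARRDC2, also an alpha-arrestin, read 6.71, 5.86 and 6.39 with Nnm against 6.22, 6.07 and 6.23 in control cells at 24 h. At 48 h it read 6.39, 5.93 and 6.22 with Nnm against 6.47, 5.92 and 6.42 in control cells. The groups overlapped at both times. The differences were 0.15 (SE 0.22, 95% interval -0.34 to 0.63, limma adjusted p = 0.668) and -0.09 (SE 0.22, 95% interval -0.57 to 0.40, limma adjusted p = 0.827), so differences inside these intervals could not be told from 0 with 3 arrays a group.

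MLXIP read 7.80, 7.17 and 7.55 with Nnm against 6.97, 6.47 and 6.86 in control cells at 24 h, and 8.02, 7.13 and 7.68 with Nnm against 6.77, 6.76 and 6.17 in control cells at 48 h. The groups did not overlap at either time. At 48 h the rise was 1.04 (SE 0.26, a fold of 2.06, limma adjusted p = 0.0273). That call was lost without the Nnm array of replicate 1 or 3, or the control array of replicate 1 or 3, of 48 h (adjusted p up to 0.107). It was also lost with no filter (0.0682), with the mean of the bright probe sets (0.0518) and with the compared groups alone (0.0694). At 24 h the difference of 0.74 (SE 0.26, 95% interval 0.17 to 1.31) did not pass the test (limma adjusted p = 0.0666), and it did with the replicate block (adjusted p = 0.018) and without the Nnm array of replicate 2 of 24 h (0.0331) or of 48 h (0.041). Its other bright probe set differed by 0.43 at 24 h and 0.71 at 48 h and did not pass at either time (limma adjusted p = 0.314 and 0.131, over all bright probe sets).

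MLX, the partner that MLXIP needs to bind DNA, read 9.03, 8.76 and 8.91 with Nnm against 8.72, 8.87 and 8.50 in control cells at 24 h. At 48 h it read 9.34, 8.89 and 9.01 with Nnm against 9.34, 9.17 and 9.06 in control cells. The groups overlapped at both times, with differences of 0.20 (SE 0.15, 95% interval -0.12 to 0.53, limma adjusted p = 0.348) and -0.11 (SE 0.15, 95% interval -0.44 to 0.22, limma adjusted p = 0.655). Its 3 bright probe sets disagreed in sign at 24 h, where the other probe sets differed by -0.13 and 0.37, and were all below 0 at 48 h, at -0.42 and -0.11 for the other probe sets.

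Counted by overlap alone, the Nnm and control values of TXNIP, ARRDC1, ARRDC3, ARRDC4 and MLXIP were apart at 24 h, and those of TXNIP, ARRDC3, ARRDC4 and MLXIP at 48 h. Of all tested genes, 39.8% were apart at 24 h and 36.1% at 48 h. TXNIP led to the choice of the genes, and ARRDC4 passed the filter on dim genes through its Nnm arrays alone. Nothing is therefore read from these counts.

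**Figure D3:**
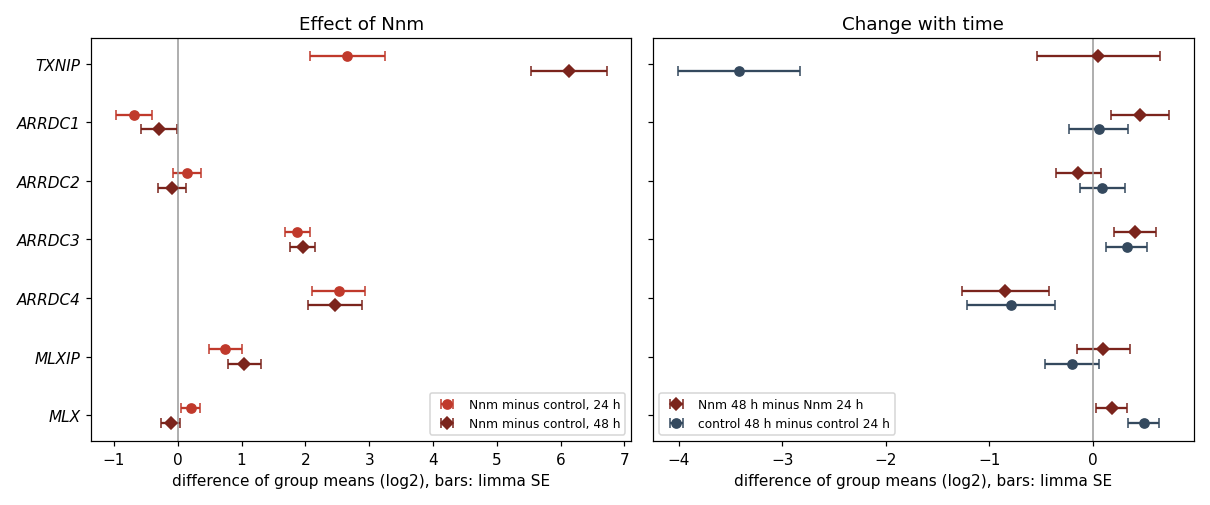
Differences of group means on the log2 scale for the 7 genes, with bars for limma's SE. The left panel sets Nnm against control at 24 h and 48 h and the right panel sets 48 h against 24 h within Nnm and within control cells. TXNIP, ARRDC3, ARRDC4 and MLXIP lie above 0 at both times on the left, and on the right TXNIP lies at 0.06 within Nnm cells and at -3.42 within control cells.

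Between the times, none of the 6 tested genes passed in Nnm cells or in control cells, where 0.119% and 0.128% of all genes did. ARRDC4 differed by -0.85 between 48 h and 24 h in Nnm cells (SE 0.42, limma adjusted p = 0.502). Its control values of 48 h all lay below those of 24 h, but both groups were under the brightness limit, so no size is given. MLX was 0.49 higher in control cells at 48 h than at 24 h (SE 0.15, limma adjusted p = 0.185, and 0.0384 with the replicate block), with no overlap. TXNIP, ARRDC4 and MLX were thus apart between the control groups, as were 26.3% of all genes. None of the 7 genes was apart between the Nnm groups, where 12.7% of all genes were. ARRDC3 was higher by 0.41 at 48 h in Nnm cells (SE 0.20, limma adjusted p = 0.493) and by 0.33 in control cells (SE 0.20, limma adjusted p = 0.463).

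The Nnm effect at 48 h minus that at 24 h passed for none of the 6 genes, nor for any of the 10907 (0%), with 698 genes at an unadjusted limma p under 0.05. The difference of effects was 0.08 for ARRDC3 (SE 0.28, 95% interval -0.54 to 0.71, limma adjusted p = 0.983), -0.06 for ARRDC4 (SE 0.60, 95% interval -1.37 to 1.26, limma adjusted p = 0.991) and 0.30 for MLXIP (SE 0.37, 95% interval -0.50 to 1.11, limma adjusted p = 0.932). The value of ARRDC4 rests on control arrays under the brightness limit. Beside the 3.47 of TXNIP, these values are given without a test between genes.

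Within a replicate number, ARRDC4 differed by 3.11, 1.23 and 3.21 at 24 h in replicates 1 to 3 and ARRDC3 by 1.98, 1.45 and 2.19. TXNIP differed by 2.93, 1.97 and 3.08. All 3 genes were thus least changed in replicate 2 at 24 h, as were genes at large. The sizes given for ARRDC4 rest on control values under the brightness limit. At 48 h ARRDC3 differed by 2.38, 1.26 and 2.24, again least in replicate 2. TXNIP, at 8.30, 5.04 and 5.05, was there as far apart in replicate 2 as in replicate 3.

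**Figure D4:**
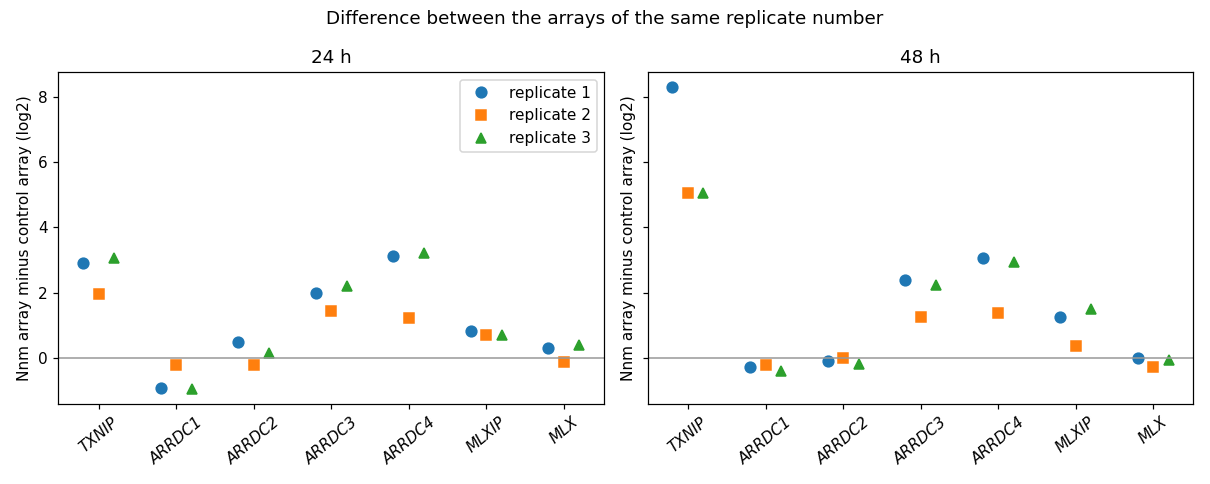
Nnm array minus the control array of the same replicate number (log2), for each of the 7 genes at 24 h (left) and 48 h (right). The orange squares of replicate 2 lie lowest for TXNIP, ARRDC3 and ARRDC4 at 24 h, at 1.97, 1.45 and 1.23, and all 3 replicates of these genes lie above 0 at both times. The differences of ARRDC4 rest on control values under the brightness limit.

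The genes around this pathway changed in both directions. Each count below stands beside the 10.6% of all tested genes that rose and 8.85% that fell at 24 h, and the 8.45% and 5.34% at 48 h, and nothing is called particular to a list. The replicate block in limma added calls to most lists and is given with them. It added calls among all genes too, so the shares above do not serve for the blocked counts. With the block 4237 of the 10907 genes passed in either direction at 24 h and 3515 at 48 h, against 2116 and 1504 without it. Among 10 tested targets of MLXIP and its relative ChREBP other than TXNIP and ARRDC4, 1 rose and 2 fell at 24 h, and 0 rose and 2 fell at 48 h. With the block 2 rose and 2 fell at 24 h, and 2 rose and 3 fell at 48 h. Their median change was -0.25 at 24 h and -0.12 at 48 h, where that of all genes was 0.01 and 0.02. FASN, the fatty acid synthase, fell with Nnm, to 9.23, 9.05 and 8.89 against 10.32, 9.67 and 10.31 in control cells at 24 h, and to 8.60, 8.47 and 8.87 against 10.13, 9.42 and 10.03 at 48 h. No FASN value with Nnm reached a control value of its time, and the differences were -1.05 (limma adjusted p = 0.0141) and -1.22 (limma adjusted p = 0.0114). The 24 h call was lost without the Nnm or the control array of replicate 3 of 24 h (adjusted p up to 0.0653). PNPLA3, a lipid droplet protein, fell at 48 h, with 6.14, 7.12 and 6.30 with Nnm against 8.01, 7.88 and 8.16 in control cells (-1.50, limma adjusted p = 0.00751). KLF10, a transcription factor of the glucose response, fell by 0.53 at 24 h (limma adjusted p = 0.0443), and that call was lost without any of 10 of the 12 arrays (adjusted p up to 0.163), without both Nnm arrays of replicate 2, with no filter and with the compared groups alone. HK2, the insulin-responsive hexokinase, rose by 0.79 at 24 h (limma adjusted p = 0.0398), but its 3 bright probe sets ranged from -0.50 to 0.79, and the call was lost without any of 7 arrays (adjusted p up to 0.14), with no filter, with the probe sets averaged and with the compared groups alone.

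Among 14 tested genes of glucose uptake and phosphorylation, 3 rose and 4 fell at 24 h, and 1 rose and 1 fell at 48 h, with medians of 0.03 and -0.08. With the block 3 rose and 5 fell at 24 h, and 2 rose and 4 fell at 48 h. SLC2A2, the low-affinity transporter GLUT2 of liver and proximal tubule, read 5.24, 6.03 and 5.71 with Nnm against 3.70, 2.65 and 2.50 in control cells at 48 h. At 48 h it was above the brightness limit on every Nnm array and on no control array, so with the control values raised to that limit it was at least 3.16-fold higher with Nnm (measured difference 2.71, limma adjusted p = 0.00655). Too few of its control arrays exceeded the limit for SLC2A2 to pass the filter on dim genes without its Nnm arrays. Neither this p nor the 1 rise it gives at 48 h therefore counts as support. At 24 h SLC2A2 was 4.11, 5.70 and 4.20 with Nnm against 4.17, 4.03 and 3.69 in control cells, which overlapped. SLC2A6, a transporter of lysosomal membranes, fell at 24 h, to 6.39, 6.08 and 5.93 against 7.56, 7.03 and 7.53 in control cells (-1.24, limma adjusted p = 0.00708). SLC2A13, a proton-coupled inositol transporter, rose by 1.31 at 24 h (limma adjusted p = 0.0136). G6PC3, a glucose 6-phosphatase found in most tissues, fell by 0.58 at 24 h (limma adjusted p = 0.0175) and by 0.45 at 48 h (limma adjusted p = 0.0491). HK1, the general hexokinase, fell by 0.49 at 24 h (limma adjusted p = 0.0423). The call of SLC2A13 was lost without the Nnm array of replicate 1 or 3 or the control array of replicate 3 of 24 h (adjusted p up to 0.0609). That of HK1 was lost without any of 7 arrays (up to 0.138), and those of G6PC3 without any of 4 at 24 h (up to 0.0713) and any of 9 at 48 h (up to 0.14). All 4 of these calls were also lost with the compared groups alone, those of HK1 and of G6PC3 at 48 h with no filter and with quantile normalisation, and that of HK1 without both Nnm arrays of replicate 2. SLC2A10 (1.21, limma adjusted p = 0.0183) and SLC37A4, the glucose 6-phosphate transporter of the endoplasmic reticulum (-1.78, limma adjusted p = 0.0303), also count at 24 h and are named after their values were seen. The remaining rise at 24 h was HK2, which also counts among the targets of MLXIP and ChREBP, where the limits of its call are given. SLC2A1, the transporter GLUT1 that TXNIP is known to internalise, was picked for that role and differed by -0.10 at 24 h (SE 0.26, limma adjusted p = 0.819) and -0.11 at 48 h (SE 0.26, limma adjusted p = 0.802).

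Of 13 tested genes of the thioredoxin system, 1 rose and 1 fell at 24 h, and 1 rose and 2 fell at 48 h, with medians of -0.01 and -0.07. With the block 2 rose and 3 fell at 24 h, and 1 rose and 5 fell at 48 h. TXNRD1, the cytosolic thioredoxin reductase, read 13.76, 12.69 and 13.83 with Nnm against 11.68, 11.85 and 11.64 in control cells at 24 h. At 48 h it read 13.29, 12.30 and 13.22 with Nnm against 11.68, 11.86 and 11.65 in control cells. It was higher on every Nnm array and least so in replicate 2, by 1.71 at 24 h (limma adjusted p = 0.0087) and 1.21 at 48 h (limma adjusted p = 0.0308, lost without any of 5 arrays, with adjusted p up to 0.118, with no filter and with the compared groups alone). NXN, nucleoredoxin, fell by 0.53 at 24 h (limma adjusted p = 0.0143) and by 0.63 at 48 h (limma adjusted p = 0.0107), and the 24 h call was lost without the Nnm array of replicate 1 or the control array of replicate 3 of 24 h (adjusted p up to 0.0653). PRDX2, a peroxiredoxin, fell by 0.45 at 48 h (limma adjusted p = 0.0489), a call lost without any of 9 arrays (adjusted p up to 0.169), with no filter, with the probe sets averaged, with median centring and with the compared groups alone. Its 3 bright probe sets ranged from -0.45 to -0.0022 at 48 h. TXN itself, the binding partner of TXNIP and again picked for that role, differed by -0.36 at 24 h (SE 0.16, limma adjusted p = 0.126) and -0.40 at 48 h (SE 0.16, limma adjusted p = 0.117), and it passed with the block at both times (limma adjusted p = 0.027 and 0.0236).

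In the network of MAX and MLX, which supplies the DNA-binding partners of MYC and MLXIP, 1 of 7 tested genes rose at 24 h and 1 fell at 48 h. With the block 2 rose at 24 h, and 1 rose and 1 fell at 48 h. MXI1, a repressor that pairs with MAX, rose by 0.77 at 24 h (limma adjusted p = 0.0232), and MYC fell by 0.66 at 48 h (limma adjusted p = 0.0268). The call of MXI1 was lost without the Nnm array of replicate 1 or 3 or the control array of replicate 3 of 24 h (adjusted p up to 0.0953), and that of MYC without any of 5 arrays of 48 h (up to 0.103). Both were also lost with no filter and with the compared groups alone. The medians were 0.15 at 24 h and -0.09 at 48 h.

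Of 7 tested ubiquitin ligases of the NEDD4 family, which alpha-arrestins recruit, SMURF2 rose by 0.42 (limma adjusted p = 0.0251) and NEDD4L fell by 0.47 (limma adjusted p = 0.0479) at 24 h, and none passed at 48 h. These calls were lost without any of 5 arrays for SMURF2 (adjusted p up to 0.0949) and any of 10 for NEDD4L (up to 0.158). Both were also lost with the probe sets averaged and with the compared groups alone, and that of NEDD4L with no filter, quantile normalisation or median centring. With the block 1 rose and 2 fell at 24 h, and 0 rose and 1 fell at 48 h. The 4 bright probe sets of SMURF2 ranged from 0.11 to 0.42 at 24 h. The medians were -0.20 and -0.21. Of 6 tested subunits of AMPK, the energy-sensing kinase that phosphorylates TXNIP, PRKAA2 rose at both times, and 2 rose with the block at both. It read 7.38, 7.63 and 7.67 with Nnm against 6.83, 7.07 and 7.00 in control cells at 24 h, with no overlap, and the rises were 0.60 at 24 h (limma adjusted p = 0.0143) and 0.68 at 48 h (limma adjusted p = 0.0117). The 24 h call was lost without the Nnm array of replicate 3 or the control array of replicate 1 or 3 of 24 h (adjusted p up to 0.0599), and the 48 h call without the Nnm array of replicate 1 of 48 h (0.0523) and with the probe sets averaged. These are the highest values among the 4 bright probe sets of PRKAA2, which ranged from 0.077 to 0.60 at 24 h and from -0.0012 to 0.69 at 48 h. The AMPK medians were 0.10 and 0.07. Of 4 other arrestins and arrestin-fold genes, ARRB1 fell at 24 h by 0.79 (limma adjusted p = 0.0291) on its brightest probe set, while its 7 bright probe sets ranged from -0.79 to 2.40, so no direction can be given for the gene. With the block 1 rose and 1 fell among the 4 at 24 h. None of the 4 passed at 48 h, and the medians were -0.01 and -0.18.

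**Figure D5:**
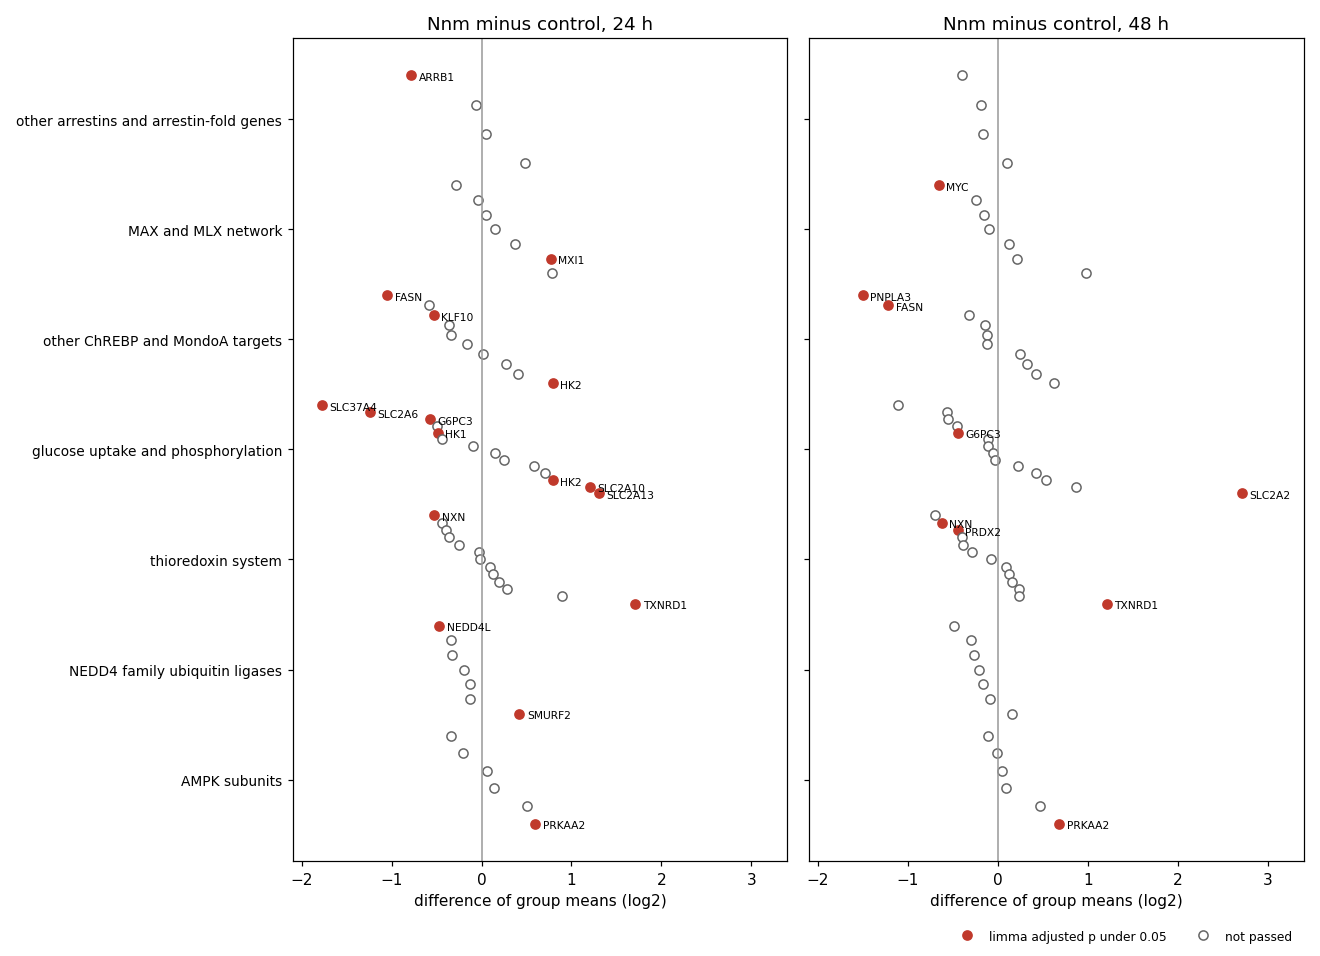
Nnm minus control (log2) at 24 h (left) and 48 h (right) for the tested genes of 7 lists around TXNIP, 1 point a gene, filled and named where limma's adjusted p was under 0.05. Points lie on both sides of 0 in every list, with SLC2A2 at 2.71 at 48 h and TXNRD1 at 1.71 at 24 h farthest to the right and SLC37A4 at -1.78 farthest to the left.

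The genes whose profile over the 12 arrays came closest to that of TXNIP, each centred on its own mean, were REPS2, RSPO3, SPHK1, SHISA2 and SLC16A14. Their root mean square differences from TXNIP were 1.43, 1.48, 1.49, 1.52 and 1.58, where TXNIP itself spread by 2.60 around its mean, so none followed it closely. REPS2, an adaptor of endocytosis, averaged 8.25 ± 0.04 with Nnm against 6.28 ± 0.73 in control cells at 24 h (SD, n = 3 each), and read 8.16, 7.54 and 8.29 with Nnm against 4.65, 5.72 and 5.47 in control cells at 48 h. SPHK1, a sphingosine kinase, averaged 7.87 ± 0.52 with Nnm against 5.69 ± 0.37 in control cells at 24 h, and 7.65 ± 0.54 against 5.10 ± 0.75 at 48 h (SD, n = 3 each). Like TXNIP, both had lower means in the 48 h than in the 24 h controls. Both were picked for closeness to TXNIP on these same arrays, so the likeness is partly built in. SLC16A14, a transporter of the monocarboxylate family, averaged 8.43 ± 1.11 with Nnm against 2.73 ± 0.44 in control cells at 24 h, and 8.62 ± 1.20 against 2.40 ± 0.07 at 48 h (SD, n = 3 each). All control values of SLC16A14 lay below the brightness limit, so it passed the filter through its Nnm arrays alone and no size is given. The profiles closest to ARRDC4, which spread by 1.40, were SHISA2, HGD and C5orf34, at 0.48 each. HGD, an enzyme of tyrosine breakdown, averaged 11.13 ± 0.50 with Nnm against 8.54 ± 0.23 in control cells at 24 h, and 10.74 ± 0.70 against 8.72 ± 0.21 at 48 h (SD, n = 3 each). Its 4 bright probe sets differed between Nnm and control by 0.89 to 2.59 at 24 h and by 0.16 to 2.03 at 48 h.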

How the data were processed

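Total RNA of 12 HK-2 cultures was labelled with biotin and hybridised to Affymetrix arrays, 1 array a culture. The deposited log2 values were made by the authors with GCRMA, a background correction, normalisation and summary of the probes, per the submitters' processing notes. Neither its version nor the arrays normalised together were given in the sources used here. Base 2 was taken from the values' range. Quantile methods of this kind make arrays alike in overall level, so a change shared by most genes would not be seen. The number of arrays limits the precision.

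Probe sets were named from the platform annotation: of 54675, 41091 had 1 gene symbol, 1801 several, 11721 none and 62 were controls. Gene IDs of 41037 were found in the RefSeq table of GRCh38.p14, with 0 symbols altered. A probe set was kept if it exceeded a log2 of 4 on 3 or more arrays (19832 with 1 gene, 12 of the 18 of the 7 genes described), and each gene was taken from its kept probe set with the highest mean. The tests used limma (version 3.58.1, R 4.3.3), with lmFit and eBayes on the 12 arrays in 4 groups, after checks on simulated data, with p adjusted by Benjamini and Hochberg over 10907 genes and a threshold of 0.05. Intervals are limma's 95% intervals, unadjusted. TXNIP got no p in any comparison.

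Replicate numbers pair the arrays: once each group's mean was taken off, same-numbered arrays of 1 time correlated at 0.34 to 0.512 (6 pairs), those of any groups at 0.318 to 0.696 (18 pairs), and arrays with different numbers at -0.587 to 0.119 (36 pairs). The planned fit has no block. The blocked value is given where it changes a call of 1 of the 7 genes or of TXN, and as counts for the gene lists. Where all control arrays of a gene at a time lay below a log2 of 4, a fold is given as a lower bound, from control values raised to 4. The genes described and the other 13 lists were chosen with earlier results of these data known. Picked by rule were the up to 3 genes of each list with the smallest p at each time, and the 5 genes nearest to TXNIP and 3 nearest to ARRDC4 in profile. Not all picked list genes are described above. The calls left out were rises of markers: DPP4 and SCNN1A at both times, and PAX8 and TFCP2L1 at 24 h. The largest of these was TFCP2L1, at 1.67 (limma adjusted p = 0.00496). Alternatives were no filter, a minimum of 6 in place of 4 (the stricter filter), averaged probe sets of a gene, quantile normalisation, median centring, trend and robust settings, the replicate block, fits to the compared groups alone, fits without each of the 12 arrays, and a fit without both Nnm arrays of replicate 2. Motifs were counted in RefSeq promoter windows, and figures made with matplotlib 3.10.9 under Python 3.11.15.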

Additional observations from a re-analysis of the deposited data

Results flagged for a closer look

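KLF10, a transcription factor of the glucose response, was lower with Nnm than in control cells in every replicate at 24 h, by -0.59, -0.39 and -0.62, and higher in every replicate at 48 h, by 0.32, 0.25 and 0.18. The effect at 48 h minus that at 24 h was 0.785. KLF10 is given here because every replicate moved one way at 24 h and the other way at 48 h. The mean difference at 48 h, 0.25, did not pass (limma adjusted p = 0.318). Between 48 h and 24 h KLF10 differed by 0.07 in Nnm cells (SE 0.16) and by -0.71 in control cells (SE 0.16, limma adjusted p = 0.144). The change of sign thus lay on the control side. No gene passed limma's test of the difference of effects over all genes.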

How the results depend on the processing

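The rises of ARRDC3 and ARRDC4 with Nnm kept their direction and their call without each array in turn and under every other alternative, apart from the stricter filter, under which ARRDC4 was not tested. ARRDC4 entered all of these fits but that with no filter through its Nnm arrays alone, so their calls of it add no support. Of the 30 called results among the genes taken from the lists and marker lists by the rule on smallest p, 8 kept the call without each array, and the block, which lost 0 of them, added 20. SLC2A2 at 48 h is among the 8, and its call adds no support, since it needed its Nnm arrays to pass the filter. Counts of called genes moved most with the handling of the replicates. For Nnm against control at 24 h (2116 genes) they were 1272 with no filter, 4237 with the replicate block, 837 with the compared groups alone, 404 to 3248 without 1 array, and 3703 without both Nnm replicate 2 arrays. The same settings gave 879, 3515, 514, 267 to 2403 and 3156 at 48 h (1504 genes). For the difference of effects (0 genes), which uses all 4 groups, the counts were 1 with no filter, 2 with the block, 1 with the mean of probe sets, 0 to 17 without 1 array and 36 without both Nnm replicate 2 arrays. Between the Nnm groups (13 genes) the 5 settings named for 24 h gave 3, 250, 0, 0 to 388 and 246, and 6 with the stricter filter, 4 with the mean of probe sets and 7 with trend and robust settings. Between the control groups (14 genes) they gave 6, 924, 4, 3 to 27 and 63, and 8 with the mean of probe sets. The tested alpha-arrestins, MLXIP and MLX called at 24 h were 2, against 1 with the stricter filter and 4 with the block, and between the control groups 0, against 1 with the block. Without the block, 3 genes passed at 48 h, and 2 to 3 without 1 array.

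Some differences changed sign, ARRB1 at 24 h among them, which had been called. Averaging probe sets turned ARRB1 to 0.70 at 24 h and 0.43 at 48 h, ITCH to 0.12 and 0.20, and VPS26C to -0.067 at 24 h. Quantile normalisation turned VPS26A to 0.00061 and LUM to 0.0018 at 24 h, and leaving out both Nnm replicate 2 arrays turned ARRDC2 to 0.038 at 48 h. Without 1 array, ARRDC2 ran from -0.050 to 0.38 at 24 h, from -0.26 to 0.038 at 48 h, from -0.37 to 0.057 between the Nnm groups and from -0.0065 to 0.27 between the control groups. ARRDC1 between the control groups ran from -0.14 to 0.33, MLXIP between the Nnm groups from -0.10 to 0.34, and the difference of effects from -0.043 to 0.29 for ARRDC3 and from -0.57 to 0.31 for ARRDC4. At 24 h the ranges were -0.042 to 0.10 for VPS26C, -0.16 to 0.030 for MXD3, -0.053 to 0.015 for SLC12A1, -0.39 to 0.037 for DCN, -0.10 to 0.093 for LUM and -0.0073 to 0.093 for PECAM1. At 48 h they were -0.084 to 0.28 for VPS26B, -0.30 to 0.050 for VPS26C, -0.021 to 0.21 for MXI1 and -0.21 to 0.0095 for PRKAG2. The cause of these changes was not tested. Between Nnm and control cells TXNIP kept its direction in each alternative, at 2.51 to 2.86 at 24 h and 5.24 to 6.69 at 48 h without 1 array. Its small difference between the Nnm groups ran from -0.14 to 0.26 without 1 array.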
